A study of Mus musculus with 74 samples.

Results

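Genes for costimulatory and inhibitory surface proteins of antigen-presenting cells were followed through a lipopolysaccharide (LPS) time course in macrophage lines that carry different amounts of the replacement histone H3.3. The genes were Cd80, Cd86, Cd40, Cd83, Cd274, Icosl, Sirpa and Cd47, taken by name from the deposited tables, and they are 8 of the 24851 genes listed for the cell lines. All 8 passed the filter on low values. The rule uses names and no threshold on a value, although the set was drawn up with earlier results of these data known. The RNA came from 18 libraries in 9 groups of 2: RAW264.7 cells, a mouse macrophage-like tumour line, and the derived lines 264 and 3205, each at 0, 60 and 120 min of LPS. The study describes its RAW264.7 lines as wild type, hypomorphic and, by CRISPR, double knockout for H3f3a and H3f3b, which both encode H3.3. Which of the numbers 264 and 3205 stands for the hypomorph is not in the labels, nor is whether a line is 1 clone or whether replicates were separate cultures, so p-values measure the spread between these libraries, which may be technical. No LPS dose is stated for the lines in the sources used here. A second set of libraries held ChIP signal in primary bone marrow derived macrophages at 0 and 60 min of 100.0 ng/mL LPS from S. typhosa, with 1 library per target and time, and its tables list 3 of the genes (Cd40, Cd83 and Icosl) among 193 genes.

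A T cell that meets its antigen needs further signals from the presenting cell, and these genes encode several of them. CD80 and CD86 bind the activating receptor CD28 and the inhibitory receptor CTLA-4, ICOSL binds ICOS, and CD274 (PD-L1) binds the inhibitory receptor PD-1. CD40 receives the CD40 ligand of helper T cells and signals through TRAF adaptors, and CD83 is an activation marker that stabilises surface CD86 and class II molecules. CD47 is the broadly expressed signal that restrains phagocytosis through its receptor SIRPA on macrophages. Toll-like receptor 4, the LPS receptor, drives NF-kB, AP-1 and, through interferons, STAT factors.

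The start-site regions of 3 genes whose LPS response is described below are shown first, because they differ in the motifs of these factors. They were taken from RefSeq (GRCm38.p6, plus strand, 250 bases before the annotated start, 5′ to 3′), where 4 of the 8 genes had an entry. The remaining gene of these 4, Cd47, is not shown, and its windows held no match to any motif searched. Capitals mark matches to the NF-kB (kB) consensus or to the AP-1 motif TGANTCA.
Icosl, chr10:78069118-78069367: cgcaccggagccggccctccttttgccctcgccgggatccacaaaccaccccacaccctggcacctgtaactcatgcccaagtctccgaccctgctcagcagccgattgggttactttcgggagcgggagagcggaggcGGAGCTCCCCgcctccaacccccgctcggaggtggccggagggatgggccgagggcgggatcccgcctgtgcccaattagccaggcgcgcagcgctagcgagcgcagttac
Cd80, chr16:38458683-38458932: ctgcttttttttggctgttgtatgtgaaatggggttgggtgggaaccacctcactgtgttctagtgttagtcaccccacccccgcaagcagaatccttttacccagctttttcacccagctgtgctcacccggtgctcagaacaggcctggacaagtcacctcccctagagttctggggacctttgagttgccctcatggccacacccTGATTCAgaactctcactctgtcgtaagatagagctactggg
Cd274, chr19:29367188-29367437: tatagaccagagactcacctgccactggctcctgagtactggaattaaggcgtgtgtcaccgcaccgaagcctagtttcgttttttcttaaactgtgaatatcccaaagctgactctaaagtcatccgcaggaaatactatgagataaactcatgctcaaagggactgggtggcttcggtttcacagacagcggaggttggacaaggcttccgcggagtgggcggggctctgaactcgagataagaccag
The capitals in Icosl lie 111 to 102 bases before the start and match the kB consensus on the minus strand, and those in Cd80 lie 42 to 36 bases before it and read TGANTCA on both strands. No match to either motif or to TTCNNNGAA, a STAT motif, was present in this Cd274 window. Among all 32851 promoter windows of this length, searched on both strands, 7.25% held the kB consensus, 6.75% TGANTCA and 7.02% TTCNNNGAA. A match describes the letters and is no sign of a bound factor. The Cd80 and Cd274 windows lie inside the annotated span of their genes, which have an outer start further upstream. In mm10 the genes span chromosome 10, 78069368 to 78079525 (Icosl), chromosome 16, 38457430 to 38495958 (Cd80), and chromosome 19, 29362107 to 29388095 (Cd274). Cd274 overlaps Plgrkt, and the sources used here do not give the strand setting of the counting, so reads of the overlap cannot be told apart.

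Values below are normalized reads, that is, the deposited read counts divided by 1 size factor per library, with replicate 1 given before replicate 2. Changes are limma log2 fold changes of value + 1 with their SE (n = 2 libraries per group), and an adjusted p below 0.05 over all genes tested is a call. Adding 1 understates changes of low genes, which touches Cd86 most. Library depth was 13.1 M to 53.9 M reads. H3f3a was lower than in RAW264.7 at all 3 times, by log2 -3.53 in line 264 and -5.12 in line 3205 at 0 min (adjusted p = 6.1e-06 and 8.9e-07), and H3f3b by -1.19 and -0.99 (adjusted p = 0.00024 and 0.00081). All 9 macrophage markers were measured, and their summed level ran from 363218 to 479010 for RAW264.7, 132123 to 217356 for line 264 and 195079 to 285354 for line 3205. The summed level of 8 dendritic cell markers ran from 73.5 to 402, and that of 4 fibroblast markers from 0 to 3.48. The highest dendritic cell sums, 391 and 402, were those of RAW264.7 at 120 min, and every other group lay at or below 208.4. They were mostly Zbtb46 (172 and 136), Xcr1 (177 and 131) and Itgax (47.9 and 122). Flt3 stayed at or below 1.96 in all libraries. The summed level of 7 T cell markers was 4145 to 9443 for line 3205, against 468 to 1911 for RAW264.7 and 832 to 1348 for line 264, and Cd28 was the most abundant of them. Of the markers that define T cells, Cd3d stayed at or below 11.1, Cd4 at or below 5.33 and Cd8a at or below 0.864. The sum of 4 B cell markers was 22.2 to 152 for line 3205, most of it Cd79b, and 1.48 to 6.11 over the other lines, with Pax5 at or below 0.661 and Ms4a1 at or below 3.42. Replicate 1 was above replicate 2 in 9 of 9 groups for Icosl and Cd47 and in 8 of 9 for Cd83 and Cd274, whereas Sirpa was above in 1 of 9. Replicate numbers paired across groups over all genes as well, and a fit with the replicate as a block is therefore quoted wherever it changed a call of the 8 genes. That fit raised the calls over all genes too, from 515 to 1398 for RAW264.7 at 60 min and from 1849 to 4137 at 120 min.

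LPS raised Cd83 within 60 min in all 3 lines, and Cd40 and Icosl by 120 min in all 3. Cd80 rose in RAW264.7 at 120 min, and Sirpa, the inhibitory receptor, fell there and in line 264. The Sirpa call of line 264 was lost without any 1 of its 4 libraries. With the replicate block Cd80 also rose and Sirpa also fell in line 3205 at 120 min. Cd86 and Cd47 had no call in any of their 6 LPS responses each, by limma, edgeR or DESeq2 without the replicate block. None of those responses had an unadjusted limma p under 0.05. In the limma fit with the block Cd86 again had none, while Cd47 had 1, a rise in RAW264.7 at 120 min. At 60 min 2 genes were called higher in RAW264.7 (Cd83 and Cd40), 1 in line 264 and 1 in line 3205, against 2.98%, 1.19% and 1.23% of all genes called in either direction. At 120 min 4 were higher and 1 lower in RAW264.7, 3 and 1 for line 264, and 3 and 0 for line 3205, where 10.6%, 5.43% and 5.03% of all genes were called. The median log2 change of the 8 genes at 120 min was 2.21 for RAW264.7, 0.53 for line 264 and 0.86 for line 3205, beside 0.00, -0.014 and -0.027 over all genes. Between 60 and 120 min 3 genes rose and 1 fell in RAW264.7, and 2 rose in each edited line, against 7.3%, 2.29% and 2.27% of all genes. Of the 48 calls that the 8 genes had over all comparisons, 25 held whichever library was left out. In fits limited to the 4 libraries of a comparison 32 of the 48 were lost. Such fits estimate the spread from few libraries, and the reason for the losses was not tested.

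**Figure D1:**
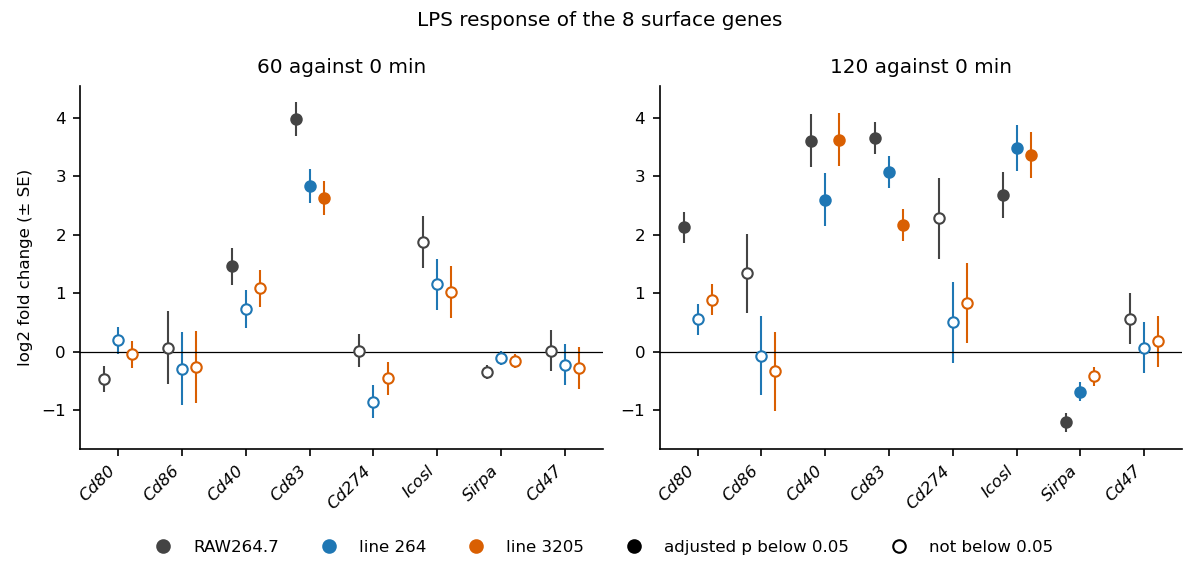
LPS response of each gene as the limma log2 fold change against 0 min at 60 and 120 min, for RAW264.7 and lines 264 and 3205. Bars are ± 1 SE and filled points are calls. Cd83 lies at 3.98 in RAW264.7 at 60 min, Cd40 and Icosl lie above 0 in all 3 lines at 120 min, and Sirpa lies below 0.

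Of the ligands of CD28 and CTLA-4, Cd80 was induced late in RAW264.7 and stood higher in both edited lines before LPS, while Cd86 was set apart by line 3205 and had no LPS call. In RAW264.7 Cd80 stood at 68.6 and 81.1 at 0 min, 52.0 and 55.4 at 60 min and 328 and 332 at 120 min. In line 264 it stood at 253 and 227 at 0 min, 253 and 296 at 60 min and 378 and 328 at 120 min, and in line 3205 at 498 and 368 at 0 min, 468 and 367 at 60 min and 1028 and 611 at 120 min. The RAW264.7 replicates lay close together and rose only after 60 min, whereas all libraries of both edited lines began above the unstimulated RAW264.7 level. In such bulk RNA fewer expressing cells and less RNA per cell cannot be told apart. Cd80 rose 4.38-fold by 120 min in RAW264.7 (log2 2.13 ± 0.26, adjusted p = 0.00095) and by log2 2.60 ± 0.24 between 60 and 120 min (adjusted p = 7.7e-05). At 60 min the change was -0.47 ± 0.23 (adjusted p = 0.45). The 120 min response in line 264 was 0.55 ± 0.26 (adjusted p = 0.31) and in line 3205 0.89 ± 0.26 (adjusted p = 0.1, 0.021 with the replicate block). The step from 60 to 120 min in line 3205, 0.93 ± 0.24, likewise passed only with the block (adjusted p = 0.076 without and 0.018 with it), and both of these passed without replicate 2 of line 3205 at 120 min (adjusted p = 0.045 and 0.022). Against RAW264.7, Cd80 was 3.18-fold higher in line 264 and 5.68-fold higher in line 3205 at 0 min (adjusted p = 0.00091 and 7.4e-05). At 60 min it was 5.03-fold and 7.60-fold higher (adjusted p = 0.0001 and 2.8e-05). At 120 min, with RAW264.7 induced, line 264 differed by 0.094 ± 0.26 (adjusted p = 0.9) and line 3205 by 1.26 ± 0.26 (adjusted p = 0.011), a call lost without either RAW264.7 replicate at 120 min or without replicate 1 of line 3205 (adjusted p up to 0.078). Line 3205 was above line 264 at 0 min (0.84 ± 0.23, adjusted p = 0.044) and at 120 min (1.17 ± 0.26, adjusted p = 0.022), and each call was lost without replicate 1 or 2 of line 264 or replicate 1 of line 3205 at that time (adjusted p up to 0.21 and 0.17). The 0 min call was also lost in the 120 min table and without a filter on low values. At 60 min the difference between the edited lines was 0.60 ± 0.23 (adjusted p = 0.15).

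Cd86 (chromosome 16, 36568956 to 36666158) had few reads in RAW264.7, at 18.5 and 32.4 at 0 min, 19.3 and 34.3 at 60 min and 46.6 and 87.1 at 120 min, and in line 264, at 39.1 and 31.6 at 0 min, 27.8 and 29.4 at 60 min and 38.3 and 29.3 at 120 min. Line 3205 had 1209 and 323 at 0 min, 806 and 336 at 60 min and 867 and 283 at 120 min, so that every library of line 3205 lay above every library of the other lines while its replicates differed from each other by 2.399 to 3.74 times. Cd86 was 24.5-fold higher in line 3205 than in RAW264.7 at 0 min (log2 4.62 ± 0.62, adjusted p = 0.00092) and 19.5-fold at 60 min (adjusted p = 0.0014). At 120 min the difference was 2.94 ± 0.67 (adjusted p = 0.018), lost without replicate 1 of RAW264.7 or of line 3205 at that time (adjusted p up to 0.14). Line 3205 was above line 264 by 4.11 ± 0.62, 4.14 ± 0.62 and 3.84 ± 0.67 at 0, 60 and 120 min (adjusted p = 0.0024, 0.0023 and 0.0066), the last lost without replicate 1 of line 3205 (adjusted p = 0.058). Line 264 itself differed from RAW264.7 by 0.50 ± 0.62 at 0 min (adjusted p = 0.73). The largest LPS change of Cd86 was 1.34 ± 0.67 in RAW264.7 at 120 min (adjusted p = 0.27), with replicate ranges that did not overlap. Cd79b, a B cell antigen receptor gene, was also higher in line 3205, at 148 and 35.9 normalized reads at 0 min with replicate 1 above, and at or below 6.11 in the other lines. Its part in the Cd86 result was not tested, and Pax5, the B cell identity factor, was near 0 throughout.

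Icosl, the ligand of ICOS, rose strongly by 120 min in all 3 lines. It stood in RAW264.7 at 398 and 301 at 0 min, 1361 and 1196 at 60 min and 2597 and 1913 at 120 min. In line 264 the values were 595 and 386 at 0 min, 1399 and 816 at 60 min and 7178 and 4023 at 120 min. In line 3205 they were 318 and 169 at 0 min, 718 and 309 at 60 min and 3101 and 1871 at 120 min. The highest libraries of the series were the pair of line 264 at 120 min, replicate 1 was the higher in every group, and no group at 120 min overlapped its own 0 min group. By 120 min Icosl rose 6.42-fold for RAW264.7, 11.2-fold for line 264 and 10.4-fold for line 3205 (log2 2.68 ± 0.40, 3.48 ± 0.40 and 3.37 ± 0.40, adjusted p = 0.0025, 0.00086 and 0.0011). At 60 min the changes were 1.88 ± 0.44, 1.15 ± 0.44 and 1.02 ± 0.44, and they passed only with the replicate block (adjusted p = 0.056, 0.48 and 0.63 without it, 0.00034, 0.012 and 0.023 with it). From 60 to 120 min Icosl rose again in lines 264 and 3205 (2.33 ± 0.45 and 2.35 ± 0.45, adjusted p = 0.017 and 0.016), and each call was lost without replicate 2 at 60 min or replicate 1 at 120 min of its line (adjusted p up to 0.17 and 0.19). In RAW264.7 that step was 0.80 ± 0.45 (adjusted p = 0.36, 0.009 with the block). Of 9 differences of Icosl between lines none was called by limma without the block or by edgeR, 3 by DESeq2 and 5 with the block, and 5 had an unadjusted p under 0.05. These were line 264 above RAW264.7 at 120 min (1.27 ± 0.40, adjusted p = 0.065 without and 0.0001 with the block) and line 3205 against RAW264.7 at 60 min (-1.44 ± 0.44, 0.054 and 0.00057). Line 3205 stood below line 264 by -1.05 ± 0.44, -1.18 ± 0.44 and -1.16 ± 0.40 at 0, 60 and 120 min (adjusted p = 0.19, 0.14 and 0.12 without the block and 0.0051, 0.0025 and 0.00029 with it). Without replicate 1 of line 3205 at 60 min the difference from RAW264.7 passed without the block as well (adjusted p = 0.024).

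Cd274, the PD-1 ligand PD-L1, was highest in RAW264.7 after 120 min of LPS and lowest in line 3205. Its values in RAW264.7 were 176 and 129 at 0 min, 190.0 and 121 at 60 min and 1245 and 434 at 120 min. Line 264 had 239 and 186 at 0 min, 115 and 117 at 60 min and 568 and 157 at 120 min, and line 3205 had 89.0 and 81.3 at 0 min, 64.8 and 58.6 at 60 min and 268 and 86.1 at 120 min. At 120 min replicate 1 was 2.87 to 3.63 times replicate 2 in all 3 lines, the widest spread between replicates of the gene, and the 2 replicates of line 264 lay on either side of the lower RAW264.7 library. Cd274 rose between 60 and 120 min in RAW264.7 (2.27 ± 0.62, adjusted p = 0.045), a call lost without either 60 min replicate or without replicate 1 at 120 min (adjusted p up to 0.33). Against 0 min the RAW264.7 change at 120 min was 2.28 ± 0.69 (adjusted p = 0.068, 0.0027 with the replicate block). In lines 264 and 3205 it was 0.50 ± 0.69 and 0.83 ± 0.69 (adjusted p = 0.8 and 0.66). Line 3205 was below RAW264.7 at 60 min (-1.29 ± 0.28, adjusted p = 0.012) and below line 264 at 0 min (-1.30 ± 0.28, adjusted p = 0.017). The first call was lost without replicate 1 of RAW264.7 or either replicate of line 3205 at 60 min, and the second without replicate 1 of line 264 or either replicate of line 3205 at 0 min (adjusted p up to 0.11 and 0.098). Both were also lost when all 18 libraries were fitted together. With the block, line 3205 passed below RAW264.7 at 0 and 120 min too (-0.82 ± 0.28 and -2.27 ± 0.69, adjusted p = 0.089 and 0.058 without and 0.016 and 0.0023 with it). It did so against line 264 at 60 min (-0.90 ± 0.28, 0.08 and 0.012), and line 264 against RAW264.7 at 120 min (-1.30 ± 0.69, 0.29 and 0.039). The 120 min difference of line 3205 from RAW264.7 also passed without replicate 1 of line 3205 at 120 min (adjusted p = 0.036).

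Among 10 regulators of the surface genes (JAK-STAT members, IRF1, CIITA, the MARCH ligases that remove CD86, and the CMTM proteins that hold PD-L1 at the surface) 9 were tested at 120 min, where 3 rose and 1 fell in RAW264.7 and none was called by limma in either edited line (3 and 3 of 9 had an unadjusted p under 0.05, edgeR called 0 and 0, DESeq2 1 and 1). Over all genes 10.6%, 5.43% and 5.03% were called at 120 min in RAW264.7, line 264 and line 3205. Among only 9 genes, the lack of a call in the edited lines lies near those shares. With the replicate block Stat3 rose and Cmtm4 fell in line 264 and Jak1 rose in line 3205. Irf1, the interferon-response factor that activates Cd274, stood in RAW264.7 at 738 and 731 at 0 min, 1245 and 869 at 60 min and 10458 and 7006 at 120 min. In lines 264 and 3205 it stood at 2099 and 364 and at 1014 and 507 at 120 min. The 120 min RAW264.7 libraries were far above all others. Irf1 rose by log2 3.54 ± 0.65 in RAW264.7 (adjusted p = 0.0077, lost without either 0 min replicate or replicate 1 at 120 min, up to 0.071). It was lower in line 264 and in line 3205 at 120 min (-3.29 ± 0.65 and -3.58 ± 0.65, adjusted p = 0.0084 and 0.0056), both lost without replicate 1 of RAW264.7 at 120 min (adjusted p = 0.076 and 0.055). Jak2, a kinase of the interferon-gamma receptor, rose in RAW264.7 by 2.31 ± 0.34 (adjusted p = 0.0024) and was higher in line 264 at 0 min by 1.69 ± 0.27 (adjusted p = 0.0023).

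Cd40 (chromosome 2, 165055614 to 165071654), the receptor for CD40 ligand, rose by 120 min in all 3 lines and reached its highest level in RAW264.7. In RAW264.7 it stood at 352 and 204 at 0 min, 889 and 613 at 60 min and 4753 and 2271 at 120 min. Line 264 had 321 and 359 at 0 min, 574 and 549 at 60 min and 3109.7 and 1374 at 120 min. The line 3205 values were 106 and 166 at 0 min, 231 and 344 at 60 min and 1830.3 and 1506 at 120 min. Values were higher at each later time with no overlap between the times of a line, and line 3205 began lowest. The 120 min rise was 12.2-fold for RAW264.7, 6.07-fold for line 264 and 12.4-fold for line 3205 (log2 3.61 ± 0.45, 2.60 ± 0.45 and 3.63 ± 0.45, adjusted p = 0.00099, 0.0093 and 0.0015). In line 264 the call was lost without replicate 1 at 0 or at 120 min (adjusted p up to 0.074). At 60 min Cd40 rose 2.75-fold in RAW264.7 (1.46 ± 0.32, adjusted p = 0.043), a call lost without replicate 2 at 0 min or either replicate at 60 min (up to 0.33), by edgeR, without a trend or filter, and with all 18 libraries together. The other lines changed by 0.72 ± 0.32 and 1.08 ± 0.32 (adjusted p = 0.67 and 0.26). Between 60 and 120 min it rose by 2.15 ± 0.42, 1.88 ± 0.42 and 2.55 ± 0.42 in RAW264.7, line 264 and line 3205 (adjusted p = 0.0079, 0.037 and 0.007). Those 3 calls were lost without RAW264.7 replicate 2 at 60 min or 1 at 120 min (up to 0.099), either 60 min replicate or replicate 1 at 120 min of line 264 (up to 0.34), and replicate 1 at either time of line 3205 (up to 0.096). Line 3205 was below RAW264.7 at 60 min (-1.38 ± 0.32, adjusted p = 0.017, lost without replicate 1 of either line, up to 0.13) and below line 264 at 0 min (-1.35 ± 0.32, adjusted p = 0.026, lost without either replicate of line 264 or replicate 1 of line 3205, up to 0.15). The second was also lost without an intensity trend, with all 18 libraries together and in the 120 min table. With the replicate block it also passed below RAW264.7 at 0 min (-1.01 ± 0.32, adjusted p = 0.069 without and 0.036 with it) and below line 264 at 60 min (-0.99 ± 0.32, 0.093 and 0.047). The first of these passed too without replicate 2 of RAW264.7 or of line 3205 at 0 min (adjusted p down to 0.047). At 120 min the difference of line 3205 from RAW264.7 was -0.98 ± 0.45, with a 95% interval of -1.99 to 0.021 (adjusted p = 0.2).

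The 11 listed genes of CD40 signalling rose with Cd40 in part: 5, 4 and 4 of 11 rose at 60 min in RAW264.7, line 264 and line 3205, and 6, 5 and 5 at 120 min, with none lower. Over all genes 2.98%, 1.19% and 1.23% were called at 60 min and 10.6%, 5.43% and 5.03% at 120 min. The list's median log2 change at 120 min was 0.98, 0.39 and 0.55 in the same order. Traf1, the inducible adaptor of CD40, rose by 4.20 ± 0.28, 3.23 ± 0.28 and 3.36 ± 0.28 at 60 min (adjusted p = 2.9e-05, 0.00031 and 0.00019). Relb and Nfkb2 encode the subunits of the non-canonical NF-kB pathway that CD40 uses, and at 120 min Relb rose by 1.90 ± 0.16, 1.80 ± 0.16 and 2.76 ± 0.16 (adjusted p = 0.0001, 0.00023 and 1.6e-05). Nfkb2 rose by 2.44 ± 0.20, 2.22 ± 0.20 and 2.87 ± 0.20 (adjusted p = 8.9e-05, 0.00025 and 4.5e-05). Before LPS the lower Cd40 level of line 3205 against RAW264.7 had no limma call without the replicate block. In that comparison 14.3% of all genes were called, 5.89% as lower, and 3 of the 11 were lower. They were Relb (-1.37 ± 0.16, adjusted p = 0.00045), Nfkb2 (-1.19 ± 0.17, adjusted p = 0.0011) and Birc3, a ubiquitin ligase of the receptor complex (-1.55 ± 0.26, adjusted p = 0.003). In line 264 at 0 min the list had 1 member higher, Nfkb2 (0.69 ± 0.17, adjusted p = 0.021, lost without either RAW264.7 replicate or replicate 1 of line 264, up to 0.13), and none lower. Of all genes 13.2% were called there.

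Cd83 (chromosome 13, 43785112 to 43803133) had the largest response of the 8 genes at 60 min and was the only one of them called at that time in all 3 lines. Its values in RAW264.7 were 1808 and 2301 at 0 min, 33770.2 and 30572 at 60 min and 26733 and 24924 at 120 min. In line 264 they were 2158 and 1321 at 0 min, 13878 and 10594 at 60 min and 15419 and 13169 at 120 min. In line 3205 they were 3552 and 2605 at 0 min, 23996 and 14657 at 60 min and 17164 and 10959 at 120 min. All LPS libraries lay far above all 0 min libraries, and both RAW264.7 libraries at 60 min stood above every library of the edited lines. By 60 min Cd83 rose 15.7-fold for RAW264.7, 7.18-fold for line 264 and 6.16-fold for line 3205 (log2 3.98 ± 0.29, 2.84 ± 0.29 and 2.62 ± 0.29, adjusted p = 4.9e-05, 0.00082 and 0.0013). At 120 min the changes were 3.66 ± 0.28, 3.08 ± 0.28 and 2.17 ± 0.28 (adjusted p = 5.5e-05, 0.00023 and 0.0018), and none of the 6 calls depended on a single library. The steps from 60 to 120 min were -0.32 ± 0.29, 0.23 ± 0.29 and -0.45 ± 0.29 (adjusted p = 0.64, 0.95 and 0.77). Line 264 was 2.65-fold below RAW264.7 at 60 min (-1.41 ± 0.29, adjusted p = 0.0094), a call lost without replicate 1 of RAW264.7 or replicate 2 of line 264 at that time (adjusted p up to 0.078). 4 further differences passed only with the replicate block. They were line 3205 below RAW264.7 at 60 min (-0.78 ± 0.29, adjusted p = 0.11 without and 0.02 with it) and at 120 min (-0.91 ± 0.28, 0.057 and 0.0096), line 264 below RAW264.7 at 120 min (-0.86 ± 0.28, 0.073 and 0.013), and line 3205 above line 264 at 0 min (0.85 ± 0.29, 0.11 and 0.017). The 120 min difference of line 3205 passed too without its replicate 1 (adjusted p = 0.036).

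On the phagocytosis checkpoint, Sirpa fell with LPS in RAW264.7 and line 264 and was lower in the edited lines before LPS, while its ligand Cd47 had no call in any comparison by limma without the replicate block, by edgeR or by DESeq2 (1 of 24 unadjusted limma p-values was under 0.05). Sirpa (chromosome 2, 129591042 to 129632228) stood in RAW264.7 at 22149 and 24316 at 0 min, 18296 and 18154 at 60 min and 9214 and 10865 at 120 min. The line 264 values were 10745 and 12595 at 0 min, 10518 and 10946 at 60 min and 6701 and 7783 at 120 min. Line 3205 libraries held 17029.5 and 17512 at 0 min, 14696 and 16398 at 60 min and 11227 and 14772 at 120 min. Replicates of this abundant gene lay within 1.32 times of each other, RAW264.7 was the highest line before LPS, and at 120 min line 3205 was. Sirpa was 2.32-fold lower at 120 min in RAW264.7 (log2 -1.21 ± 0.17, adjusted p = 0.0017), and the step between 60 and 120 min was -0.87 ± 0.14 (adjusted p = 0.0033). In line 264 it fell by 0.69 ± 0.17 on the log2 scale (adjusted p = 0.043), lost without any 1 of the 4 libraries (0.095 to 0.24), without a filter and without an intensity trend. In line 3205 the change was -0.42 ± 0.17 (adjusted p = 0.23, 0.018 with the block). The RAW264.7 change at 60 min, -0.35 ± 0.12, and the step from 60 to 120 min in line 264, -0.57 ± 0.14, also passed only with the block (adjusted p = 0.21 and 0.065 without, 0.041 and 0.0023 with it). Line 264 was 1.99-fold below RAW264.7 at 0 min (-0.996 ± 0.12, adjusted p = 0.00043) and 1.70-fold below it at 60 min (adjusted p = 0.002). Line 3205 was lower at 0 min by -0.43 ± 0.12 (adjusted p = 0.041, lost without any 1 of the 4 libraries, 0.072 to 0.22, without a filter or trend, with all 18 libraries together and in the 120 min table). It was above line 264 by 0.57 ± 0.12, 0.53 ± 0.12 and 0.83 ± 0.17 at 0, 60 and 120 min (adjusted p = 0.014, 0.02 and 0.012). The first was lost without replicate 1 of line 264 (0.09) and in the 120 min table, the second without any 1 of its 4 libraries (up to 0.15), and the third without replicate 1 of line 264 or 2 of line 3205 (up to 0.096). At 120 min line 264 differed from RAW264.7 by -0.47 ± 0.17 (adjusted p = 0.1, 0.0059 with the block) and line 3205 by 0.36 ± 0.17 (adjusted p = 0.2, 0.021 with the block).

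Cd47 (chromosome 16, 49851328 to 49912503) stood in RAW264.7 at 4217 and 3090.4 at 0 min, 4269 and 3108 at 60 min and 6974 and 4068 at 120 min. Line 264 libraries held 3049 and 1989 at 0 min, 2397 and 1851 at 60 min and 3238 and 2060.5 at 120 min, and those of line 3205 4784 and 2269 at 0 min, 3161 and 2331 at 60 min and 5029 and 2760.3 at 120 min. Replicate 1 exceeded replicate 2 by 1.29 to 2.11 times in all 9 groups. With the replicate as a block 7 differences passed, of which the largest was line 264 below RAW264.7 at 120 min (-1.04 ± 0.44, adjusted p = 0.17 without and 0.0003 with it). Line 264 was also below RAW264.7 with the block at 0 and 60 min (-0.55 ± 0.35 and -0.79 ± 0.35, adjusted p = 0.42 and 0.18 without, 0.022 and 0.0028 with it). At 120 min line 3205 stood between them, -0.52 ± 0.44 from RAW264.7 and 0.53 ± 0.44 from line 264 (adjusted p = 0.53 and 0.61 without, 0.017 and 0.02 with the block). The RAW264.7 change by 120 min was 0.56 ± 0.44 from 0 min and 0.55 ± 0.41 from 60 min (adjusted p = 0.52 and 0.53 without, 0.013 and 0.019 with the block).

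Of 12 other listed genes of the CD47 and SIRPA axis (phosphatases and adaptors that bind SIRPA, other CD47 ligands, the modifying enzyme Qpctl and the activating SIRPB1 receptors) none was called by limma in any LPS response. At an unadjusted p under 0.05 there were 0, 0 and 1 of 11 tested at 60 min in RAW264.7, line 264 and line 3205, and 3, 1 and 0 of 12 at 120 min. Over all genes 2.98%, 1.19% and 1.23% were called at 60 min and 10.6%, 5.43% and 5.03% at 120 min, in the same order. EdgeR called none, whereas with the replicate block the phosphatase gene Ptpn11 rose and Ptpn6 fell in RAW264.7 and the adaptor gene Fyb rose in line 264 at 120 min, of which DESeq2 called Ptpn11 and Fyb. Against RAW264.7 at 0 min, 0 of 11 were higher and 4 lower in line 264, and 1 and 3 in line 3205. Of all genes 13.2% and 14.3% were called there. Fyb was called higher in line 3205 at all 3 times and Ptk2b in line 264 at 60 and 120 min. In both edited lines the called members that were lower included Sirpb1a, Sirpb1b and Sirpb1c, which pair with an activating adaptor in place of the inhibitory tail of SIRPA. Sirpb1c stood at 22.9 and 11.6 in unstimulated RAW264.7, 0 and 0 for line 264 and 3.42 and 1.20 for line 3205. Sirpb1b was likewise low in unstimulated RAW264.7, at 17.4 and 9.26. Sirpb1b and Sirpb1c were lower in line 264 at all 3 times whichever library was left out. The Sirpb1c differences in line 264 were -4.12 ± 0.57, -4.16 ± 0.57 and -3.83 ± 0.69 (adjusted p = 0.001, 0.0009 and 0.0049). The Sirpb1 genes resemble each other and Sirpa closely enough that reads may have been shared between them, and their values are uncertain for that reason.

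Against RAW264.7, Cd80 was called higher in both edited lines at 0 and 60 min and in line 3205 at 120 min, and Cd86 in line 3205 at all 3 times. Sirpa was called lower in line 264 at 0 and 60 min and in line 3205 at 0 min, the last lost without any 1 library, and at 120 min line 3205 stood above RAW264.7 without a call. Cd40 and Cd274 were called lower in line 3205 at 60 min and Cd83 in line 264 at 60 min. Each of these calls was lost without at least 1 of its libraries, as were those of Cd80 and Cd86 in line 3205 at 120 min. Line 264 had 1 gene higher and 1 lower than RAW264.7 at 0 min, 1 and 2 at 60 min, and none at 120 min, against 13.2%, 15.3% and 13.5% of all genes called. At 120 min 4 of the 8 had an unadjusted p under 0.05, edgeR called 0, DESeq2 2 and the replicate block 5. Line 3205 had 2 higher and 1 lower at 0 min, 2 and 2 at 60 min, and 2 and 0 at 120 min, against 14.3%, 15.4% and 13.9%. Between the edited lines 3 were higher and 2 lower in line 3205 at 0 min, 2 and 0 at 60 min, and 3 and 0 at 120 min, against 10.4%, 10.2% and 9.0%. With so few genes, these shares can be set beside the background only as a description. Differences between lines in H3.3, in the levels of macrophage markers, which did not all go 1 way, and in any other property of a derived line cannot be told apart in these libraries.

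**Figure D2:**
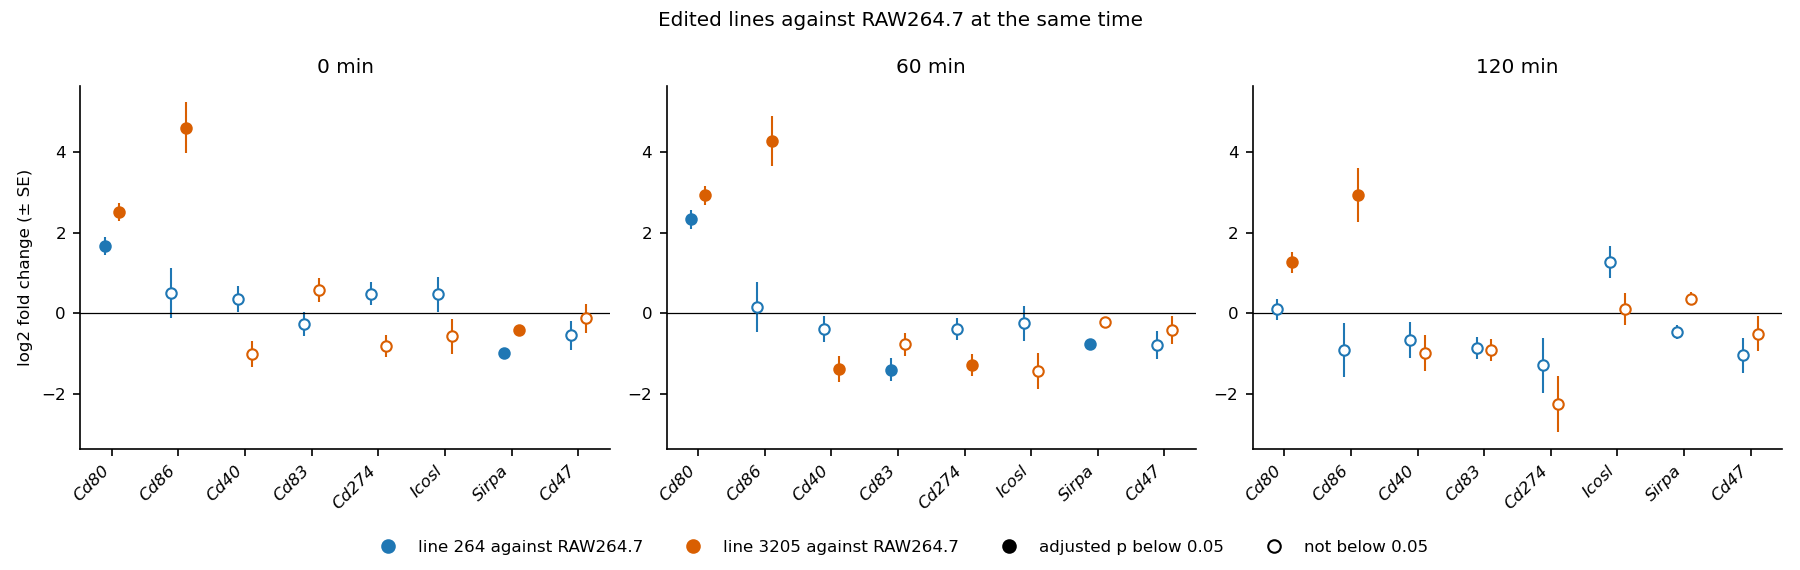
Difference of each edited line from RAW264.7 at 0, 60 and 120 min as the limma log2 fold change, with ± 1 SE and filled points for calls. Cd86 in line 3205 lies at 4.62 at 0 min, Cd80 lies above 0 in both lines at 0 and 60 min, and Sirpa in line 264 lies below 0 at each time.

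Whether the LPS responses themselves differed between lines was tested as a contrast of contrasts. None of the 8 genes was called in any of the 6 such comparisons, in which 0.0173%, 0.00578% and 0.0% of all genes were called at 60 min and 0.0229%, 0.00573% and 0.0% at 120 min (264 minus RAW264.7, 3205 minus RAW264.7 and 3205 minus 264). At an unadjusted p under 0.05 there were 1, 1 and 0 of 8 at 60 min and 1, 3 and 1 at 120 min, and edgeR and DESeq2 called 0. The Cd80 response at 120 min of line 264 differed from that of RAW264.7 by -1.58 ± 0.37 (95% interval -2.41 to -0.74, adjusted p = 0.51) and that of line 3205 differed by -1.24 ± 0.37 (-2.08 to -0.41, adjusted p = 0.71). For Cd83 the differences from RAW264.7 were -1.13 ± 0.41 and -1.35 ± 0.41 at 60 min in lines 264 and 3205 (95% intervals -2.05 to -0.21 and -2.27 to -0.43) and -1.49 ± 0.39 at 120 min in line 3205 (-2.36 to -0.61, adjusted p = 0.53). The unadjusted intervals of these genes lie below 0 while no difference passed the adjustment over all genes. The Sirpa response of line 3205 at 120 min differed from that of RAW264.7 by 0.79 ± 0.24 (adjusted p = 0.7, 0.041 with the replicate block), and this was the 1 call of the 48 tests with the block. For Icosl at 120 min the intervals were wide, -0.45 to 2.05 for line 264 and -0.56 to 1.94 for line 3205, so that neither a larger nor a smaller response was detectable here.

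The order of the 9 group means shows where each gene is set. Cd80 ran from 53.7 in RAW264.7 at 60 min to 819.7 in line 3205 at 120 min, 15.3-fold, and 3 of its 8 pairs of neighbouring groups overlapped in their replicates. Cd86 ran from 25.5 in RAW264.7 at 0 min to 766 in line 3205 at 0 min, 30.1-fold, with 6 of 8 neighbours overlapping, and its 3 highest groups were those of line 3205. Cd40 ran from 136 in line 3205 at 0 min to 3512 in RAW264.7 at 120 min, 25.8-fold (4 of 8), and its 3 highest groups were the 120 min groups of the 3 lines. Cd83 ran from 1739 in line 264 at 0 min to 32171 in RAW264.7 at 60 min, 18.5-fold (4 of 8), and its 3 lowest groups were the 0 min groups. Above its 0 min groups Cd83 mixed the later times, with both RAW264.7 groups on top, and below its 120 min groups Cd40 mixed 0 and 60 min. Cd274 ran from 61.7 in line 3205 at 60 min to 839.8 in RAW264.7 at 120 min, 13.6-fold (5 of 8), and Icosl from 244 in line 3205 at 0 min to 5600.4 in line 264 at 120 min, 23.0-fold (5 of 8). Sirpa ran only from 7242 in line 264 at 120 min to 23232 in RAW264.7 at 0 min, 3.21-fold (4 of 8), and Cd47 from 2124 in line 264 at 60 min to 5521 in RAW264.7 at 120 min, 2.60-fold, where all 8 pairs of neighbours overlapped. These overlaps do not pair the replicates, and in pairs the highest Cd47 group, RAW264.7 at 120 min, was above the next, line 3205 at 120 min, in both replicates (adjusted p = 0.017 with the block).

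**Figure D3:**
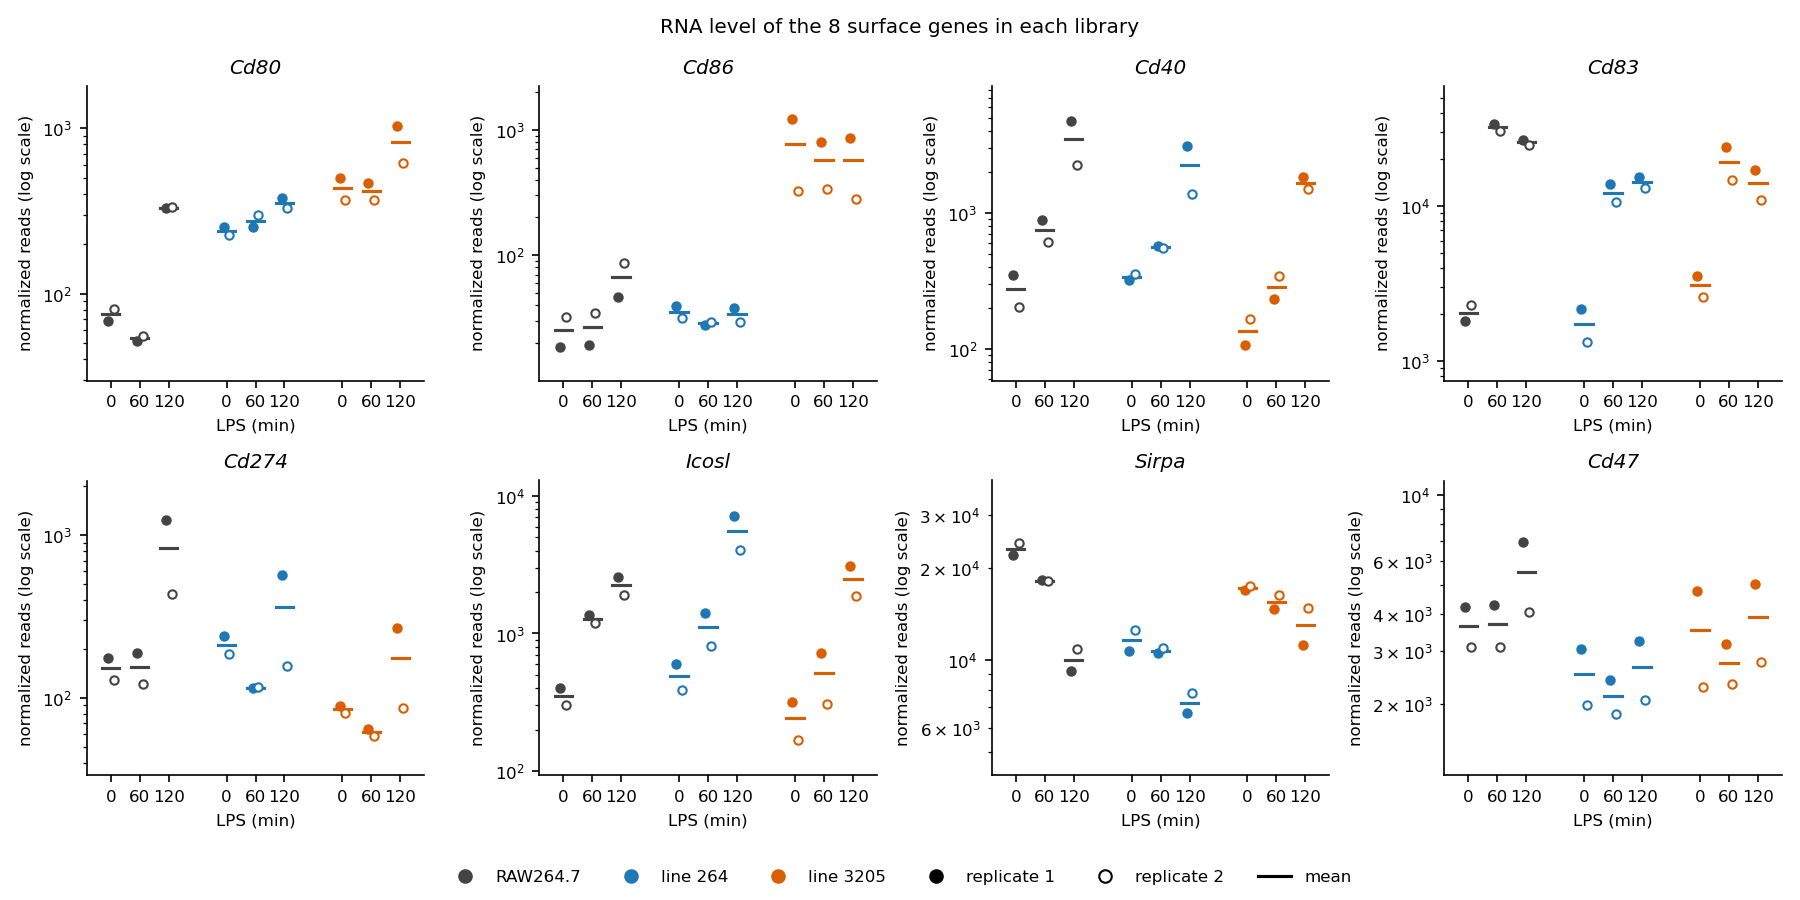
Normalized reads (log axis) of the 8 genes in each of the 18 libraries, 1 panel per gene, against min of LPS, with points for libraries and lines for the group means of RAW264.7, line 264 and line 3205. Cd83 and Cd40 climb in every line, Cd86 separates line 3205 from the others, and Cd47 replicates overlap between neighbouring groups.

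The receptors that these ligands meet on T cells were themselves read in the lines, and they were singled out after their values were seen. Cd28, the receptor of CD80 and CD86, stood at 266 and 624 at 0 min, 171 and 581 at 60 min and 37.3 and 133 at 120 min in RAW264.7. In line 264 the level was 859 and 556 at 0 min, 592 and 458 at 60 min and 321 and 237 at 120 min. In line 3205 the level was 6869 and 7855 at 0 min, 5163 and 6563 at 60 min and 2001 and 3275 at 120 min. All 6 libraries of line 3205 lay above all others, as they did for Cd86, and every line was lowest at 120 min. Cd28 was higher in line 3205 than in RAW264.7 by 4.17 ± 0.53, 4.20 ± 0.53 and 5.16 ± 0.56 at 0, 60 and 120 min (adjusted p = 0.00066, 0.00059 and 0.00028), whichever library was left out. Line 264 was also above RAW264.7 at 120 min (1.95 ± 0.56, adjusted p = 0.048), a call lost without replicate 1 of RAW264.7 or either replicate of line 264 at that time (up to 0.32) and by edgeR. In RAW264.7 it fell by 2.51 ± 0.56 on the log2 scale by 120 min (adjusted p = 0.019), a call lost without replicate 2 at 0 min or 1 at 120 min (up to 0.16). Icos, the receptor of ICOSL, stood at 125 and 265.2 for RAW264.7, 475 and 697 for line 264 and 1131 and 1375 for line 3205 at 0 min. The difference of line 3205 was 2.77 ± 0.41 (adjusted p = 0.0015), that of line 264 1.65 ± 0.41 (adjusted p = 0.024, lost without replicate 1 of RAW264.7 or 2 of line 264, up to 0.19), and Icos had no LPS call. Ctla4, the inhibitory receptor of CD80 and CD86, stood at 61.6 and 37.1 in line 3205 against 1.09 and 4.63 (RAW264.7) and 5.46 and 4.28 (line 264) at 0 min, and line 3205 was above RAW264.7 by 3.83 ± 0.62 (adjusted p = 0.0027). All 3 receptors were thus highest in line 3205 at 0 min, in libraries where Cd3d, part of the T cell antigen receptor, stood at 11.1 and 1.20.

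Pdcd1, the PD-1 receptor of CD274, followed another pattern. It stood at 127 and 26.6 at 0 min, 168 and 39.6 at 60 min and 1753 and 862 at 120 min in RAW264.7. Readings for line 264 were 7.28 and 11.97 at 0 min, 3.48 and 7.78 at 60 min and 119 and 35.5 at 120 min. Line 3205 had 217 and 175 at 0 min, 155 and 130.3 at 60 min and 1445 and 313 at 120 min. The 120 min libraries were the highest of every line, and line 264 was the lowest line at each time. Pdcd1 rose by 4.37 ± 0.88 in RAW264.7 at 120 min (adjusted p = 0.012, lost without replicate 2 at 0 min or 1 at 120 min, up to 0.11). Line 264 was below RAW264.7 by -3.72 ± 0.79 at 60 min and -4.22 ± 0.88 at 120 min (adjusted p = 0.01 and 0.011). The first was lost without replicate 1 of either line, the second without replicate 1 of RAW264.7 or 2 of line 264 (up to 0.091 and 0.098). The 120 min changes in lines 264 and 3205 were 2.67 ± 0.88 and 1.78 ± 0.88 (adjusted p = 0.13 and 0.36, the first 0.013 with the block).

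**Figure D4:**
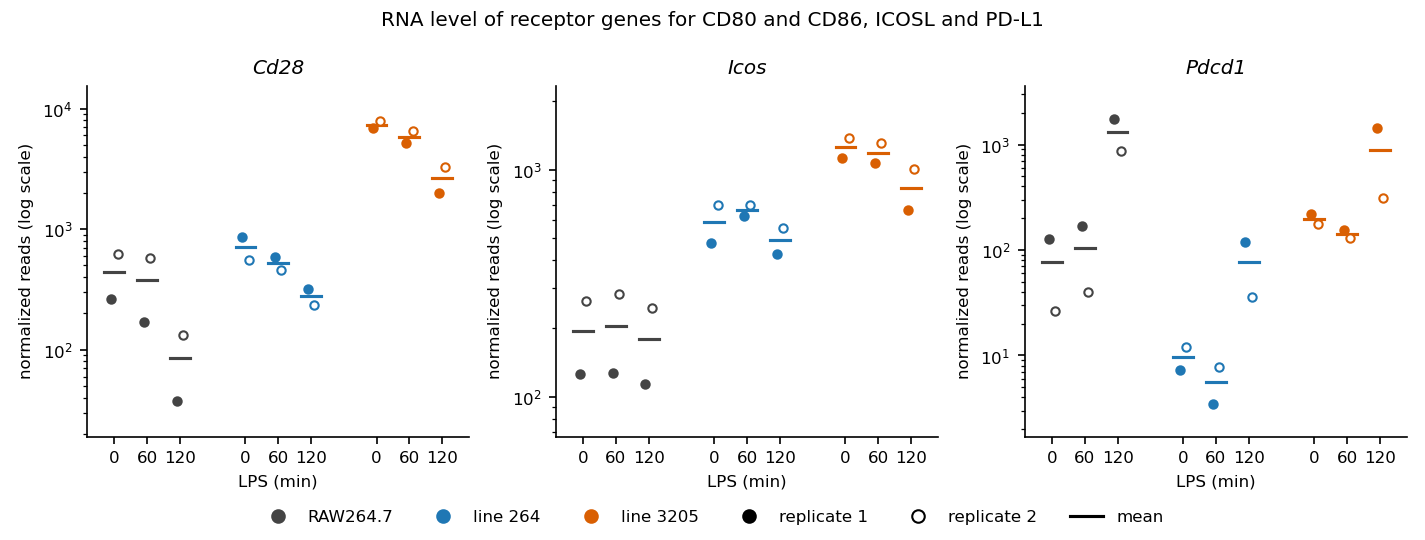
Normalized reads (log axis) of Cd28, Icos and Pdcd1 in each of the 18 libraries against min of LPS, with points for libraries and lines for the group means. Cd28 in line 3205 runs at 6869 and 7855 at 0 min, above all libraries of the other lines, and Pdcd1 is highest at 120 min in each line.

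In other costimulatory families Tnfsf9 and Icam1 were called with LPS in all 3 lines at 60 min, and Pvr, Cd44, Lilrb4 and Gp49a in all 3 at 120 min. The counts below stand beside 2.98%, 1.19% and 1.23% of all genes called at 60 min in RAW264.7, line 264 and line 3205. At 120 min these shares were 10.6%, 5.43% and 5.03%. Of 8 listed costimulatory genes of the TNF superfamily, Tnfsf9 (4-1BB ligand) was called higher in all 6 LPS responses. It rose by 2.66 ± 0.29, 2.303 ± 0.29 and 2.38 ± 0.29 at 60 min in RAW264.7, line 264 and line 3205 (adjusted p = 0.00081, 0.003 and 0.0025). Of 12 adhesion and SLAM genes tested, Icam1, the ligand of LFA-1, rose by 2.55 ± 0.23, 3.24 ± 0.23 and 2.79 ± 0.23 (adjusted p = 0.00021, 6.7e-05 and 0.00016), and 1 other, Pvr in RAW264.7, was called at 60 min. At 120 min 3 of the 12 rose in each line, Icam1, the nectin-like receptor gene Pvr (1.53 ± 0.31, 1.42 ± 0.31 and 1.55 ± 0.31) and Cd44, the hyaluronan receptor gene (1.73 ± 0.31, 1.25 ± 0.31 and 1.42 ± 0.31). Each of these Pvr and Cd44 calls was lost without 1 or more of its libraries (adjusted p up to 0.18 and 0.26), and edgeR did not call Cd44 in line 264. The list of inhibitory myeloid receptors also holds Gp49a, a paralog of Lilrb4 that is not counted here as inhibitory itself. Of this list none of 16 was called by limma at 60 min in any line (3 in each had an unadjusted p under 0.05). EdgeR called 0 in each and DESeq2 1, 3 and 2. With the replicate block Gp49a and Lilrb4 rose in all 3 lines at 60 min as well, and Havcr2 (TIM-3) fell in RAW264.7 and line 264. The 60 min changes of Gp49a were 2.09 ± 0.53, 2.05 ± 0.53 and 2.24 ± 0.53 (adjusted p = 0.073, 0.14 and 0.11 without the block and 0.001, 0.0019 and 0.0011 with it). At 120 min 2 of 17, Lilrb4 and Gp49a, rose in all 3 by limma without the block. For RAW264.7 that count lies near the share of all genes, as does the lack of calls at 60 min in each line. Lilrb4 rose by 2.28 ± 0.32, 2.52 ± 0.32 and 2.83 ± 0.32 (adjusted p = 0.0018, 0.0015 and 0.00086). Lilrb4 and Gp49a are close paralogs whose reads may be split. Of 4 tested B7 and butyrophilin relatives 1 was called, 4632428N05Rik (VISTA), which fell in RAW264.7 at 120 min (adjusted p = 0.028, lost without any 1 of its 4 libraries, up to 0.2). Vtcn1, Btn1a1, Btn2a2 and Slamf1 had no read in all libraries of at least 1 line.

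Between the edited lines and RAW264.7 these families held calls in both directions. Of the 12 adhesion and SLAM genes 5 were higher and 3 lower in line 264 at 0 min, and 4 and 3 in line 3205, where 13.2% and 14.3% of all genes were called. Cd24a, a costimulator of T cells, stood at 674 and 353 for RAW264.7, 4945 and 4102 for line 264 and 14967 and 12096 for line 3205, a difference of 3.20 ± 0.29 and 4.78 ± 0.29 (adjusted p = 6.9e-05 and 5.3e-06). Pvrl3 (nectin-3) at 0 min had 1519.8 and 1021 in RAW264.7 against 31.7 and 13.2 for line 3205 and 0 and 0 for line 264. Cd44 was lower in lines 264 and 3205 at 0 min (-1.41 ± 0.22 and -1.61 ± 0.22, adjusted p = 0.0021 and 0.001). Of 16 genes on the inhibitory myeloid receptor list tested at 0 min 5 were higher and 4 lower in line 264, and 3 and 5 in line 3205, beside the same shares of all genes. Sirpa was thus 1 of several inhibitory receptors that differed. Lair1, a collagen receptor, was higher in both lines (3.48 ± 0.42 and 3.43 ± 0.42, adjusted p = 0.00045 and 0.00056). Clec4a2, an inhibitory lectin, was lower in both (-3.85 ± 0.34 and -2.76 ± 0.34, adjusted p = 6.2e-05 and 0.00058). Pdcd1lg2 (PD-L2), the other PD-1 ligand, had 26.4 and 11.97 in line 264 and 0 and 0 in RAW264.7 at 0 min (adjusted p = 0.0021). Tnfsf14 (LIGHT) was higher in line 3205 at 0 min (3.75 ± 0.56, adjusted p = 0.0017).

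The genes whose pattern was nearest to each member were found among 10070 genes by the root mean square (RMS) difference of 12 centred log2 group means, which share libraries, and the values describe likeness only. The nearest to Cd80 was Tbc1d9 (RMS 0.37), and the nearest to Cd86 was Rhoj (0.44), followed by Clec4a1 (0.57). Nearest to Cd40 was Ehd1, an endocytic recycling gene (0.35), and nearest to Icosl was Ikbke, an NF-kB and interferon kinase (0.31), followed again by Ehd1 (0.36). Cd83 lay nearest to Atf3, an LPS-induced transcription factor (0.50), and Cd274 nearest to Usp27x (0.28) and Samd9l, an interferon-induced gene (0.32). The flatter patterns of Sirpa and Cd47 had closer neighbours, Tmem144 (0.11) and Pls3 (0.090).

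In primary macrophages the phosphorylated form of H3.3 at serine 31 (H3S31ph), which marks bodies of stimulated genes, rose most at Cd83 of the 3 genes the ChIP tables list. The tables are a selection in which RNA rose in the authors' comparison for 187 of 193 genes, so a rise there is not particular to the 3, and with 1 library per target and time there is no replicate check. H3S31ph signal went from 1.80 to 19.8 at Cd83, a ratio of 11.02 that ranked 24 of 193. It went from 1.13 to 4.97 at Cd40 (4.39, rank 87) and from 1.05 to 2.09 at Icosl (1.99, rank 151), beside a median ratio of 3.83. Ratios above 1 were the rule in the table, at 98.4% of genes for H3S31ph. H3S28ph, the phosphorylation shared by all H3 forms, had ratios of 3.58, 3.34 and 2.59 at Cd83, Cd40 and Icosl (median 2.58), where 98.4% of genes were above 1. H3K36me3, the mark of transcribed bodies, went from 2.35 to 6.56 at Cd83 and from 0.536 to 1.30 at Cd40, ratios that ranked 17 and 26, and its ratio at Icosl was 1.43 (rank 126, median 1.59), where 95.3% were above 1. By ratio, Cd83 thus lay in the upper part of the table for both phosphorylations and for H3K36me3. Cd40 did so for H3S28ph and H3K36me3, and nearer the middle for H3S31ph. Icosl lay in the lower part for H3S31ph and H3K36me3 before any division by H3.3. By signal at 60 min Cd40 ranked only 117 for H3S31ph and 151 for H3K36me3, and its H3K36me3 signal at 0 min, 0.536, was below the median of 2.22.

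H3K27ac, the mark of active promoters and enhancers, had ratios of 1.19 and 1.21 at Cd83 and Cd40, near the median of 1.16, and went from 1.05 to 0.743 at Icosl (0.710, rank 183), where 70.5% of genes were above 1. H3K36me2 ratios were 0.838, 1.09 and 1.11 at Cd83, Cd40 and Icosl (median 1.004), with 52.3% above 1. H3.3 itself had ratios of 2.17, 1.35 and 1.09 (median 1.96), with 99% above 1. The H3.3 ratio ranked 56 of 193 at Cd83, 174 at Cd40 and 186 at Icosl. Divided by the H3.3 ratio of the same gene, the H3S31ph ratio was 5.09 at Cd83, 3.26 at Cd40 and 1.83 at Icosl (median 2.07). The same division gave H3S28ph ratios of 1.65, 2.48 and 2.38 at Cd83, Cd40 and Icosl (median 1.35) and H3K36me3 ratios of 1.29, 1.81 and 1.31 (median 0.852), so that Icosl moved from below to above the median for H3K36me3. For H3K27ac the divided ratios were 0.548, 0.901 and 0.651 (median 0.654), where Cd83 moved from above to below it, and for H3K36me2 0.387, 0.808 and 1.02 (median 0.511). RNA of the 3 genes changed by similar amounts in the same table: in the authors' deposited table the log2 fold changes in primary macrophages were 3.86 ± 0.22 for Icosl, 3.79 ± 0.25 for Cd40 and 3.71 ± 0.10 for Cd83 (ranks 47, 49 and 51 of the 195 genes in the larger of the 2 tables), and the length of LPS treatment behind these values is uncertain. Those RNA changes differed from each other by less than the largest of their SEs, while the H3S31ph ratios ran from 1.99 to 11.02.

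**Figure D5:**
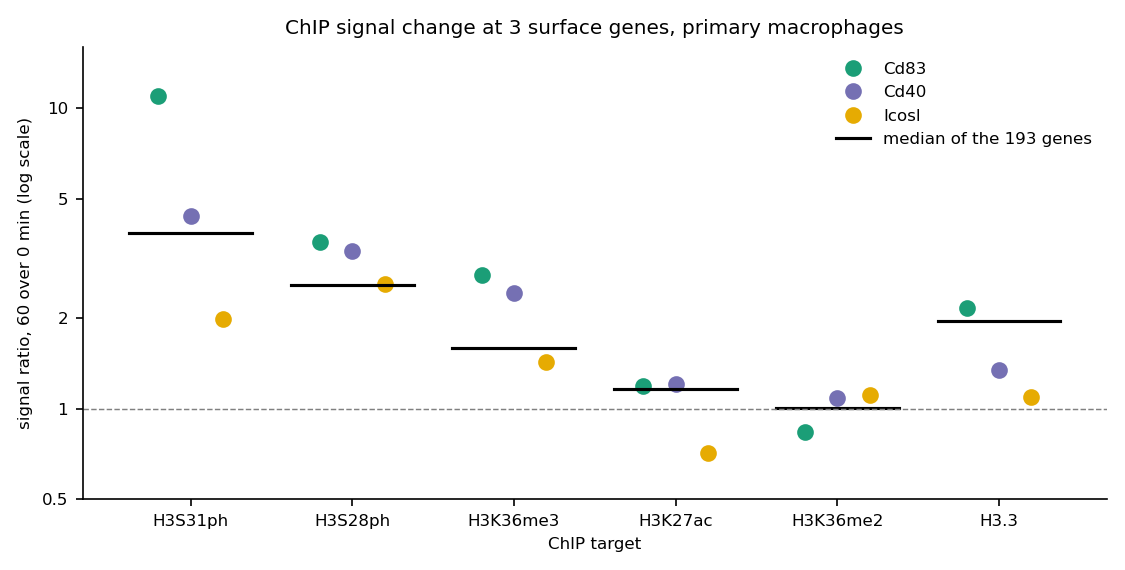
Ratio of ChIP signal at 60 min over 0 min (log axis) for 6 targets in primary macrophages, with Cd83, Cd40 and Icosl as points and the median of the 193 genes as a line. Cd83 stands at 11.02 for H3S31ph against a median of 3.83, and Icosl stands below 1 for H3K27ac.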

How the data were processed

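The 8 genes, the gene lists and the tests were chosen with earlier results of these data known. RNA was measured in 18 cell line libraries, and ChIP signal in 12 libraries of primary macrophages; the remaining samples of the 74 in the series were not used here. The submitters' processing notes name, with no roles, mm10 and the tools STAR 2.4.2, Trim Galore 0.5.0, Subread 1.4.6 with featureCounts, R 3.4.0, DESeq2, deepTools 2.5.4, SAMtools 1.5, Picard 2.14.0 and Bowtie2 2.3.4.1. In the deposited RNA tables the signal equals counted reads over 1 size factor for each library: rescaled, 100.0% of the values lay within 0.1 of a whole number (0.0662 at most). One scaling covered the tables for 60 and 120 min, so a test of 120 against 60 min was added after the data were seen, whereas separate scalings had been assumed. The sources used here do not give the scaling of the deposited ChIP signal. The authors also deposited, per the file headers, log2 fold changes, a p-value with its adjusted value per comparison, and a test score; of these only the log2 fold changes of primary macrophages are quoted.

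Log2(value + 1) was fitted by limma-trend (limma 3.58.1, R 4.3.3) over the 12 libraries of each table, with 1 mean per group, or over all 18 for 120 against 60 min. Genes needed a mean of at least 1 (17301, 17450 and 17367 genes), and Benjamini-Hochberg adjustment ran over all of them. Depth was 13.1 M to 53.9 M reads per library. Replicate numbers were checked as pairs by correlating replicate 1 minus replicate 2 between groups: the 15 correlations of the 60 min table lay between 0.16 and 0.56 with median 0.27, those of the 120 min table between 0.22 and 0.56 with median 0.31. The other settings were no trend, no filter, a mean of at least 10, the replicate block, pseudocounts of 0.5 and 5, TMM scaling, fits of only the groups compared, each library left out, and edgeR 4.0.16 and DESeq2 1.42.0 on the recovered reads, where edgeR called 465 genes for RAW264.7 at 60 min against 515 by limma. Scripts were tested on simulated data.

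Named genes were the 8 members in every comparison, up to 3 genes of each list by smallest p among the calls of a comparison (the text quotes some of these), listed genes without a read in a whole line, and the 2 nearest in pattern. Cd28, Icos, Ctla4, Pdcd1 and Cd79b were singled out after their values were seen. ChIP ratios are 60 over 0 min with no test. Promoter windows and symbols came from RefSeq (GRCm38.p6). Tables and plots used Python 3.11.15, matplotlib 3.10.9, pandas 2.3.3 and numpy 2.4.6.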

Additional observations from a re-analysis of the deposited data

How the results depend on the processing

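Over the LPS responses 16 calls of the 8 genes passed, and 5 did in fits limited to the groups compared and 25 with edgeR and the replicate block. For edited lines against RAW264.7 the 14 calls became 29 with the replicate block, by limma and by edgeR. For line 3205 against line 264 the 10 calls became 17 with the block, 19 with edgeR and the block, 1 with only the groups compared and 6 when the 0 min libraries were read in the 120 min table. For differences of responses the 0 calls became 1 with the block, by either tool, and for 120 against 60 min the 8 calls became 0 with only the groups compared and 13 with edgeR and the block. Leaving out 1 library gave 13 to 18, 10 to 16, 6 to 10, 0 to 0 and 5 to 10 calls in the same order. Fits limited to the groups compared hold 4 libraries each, or 8 for differences of responses, and so estimate the spread from few of them. The replicate block ended no call, and it gained 35 of the 192 tests of the 8 genes, all given beside the results; it changed no other call. TMM scaling, both pseudocounts and a mean of at least 10 changed no call of the 8 genes. Without a filter 5 calls were lost, without an intensity trend 6, by edgeR 2, and DESeq2 gained 17; fitting all 18 libraries together lost 5 and gained 7. No direction reversed among these settings where either fit made a call, and changes of sign between values without a call were not counted. Of 18 ChIP ratios 16 were above 1, and 10 of 18 after division by the H3.3 ratio, which sets the 3 ratios of H3.3 itself to exactly 1. Few reads limit Cd86 in RAW264.7 and line 264 most.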
